A study of Homo sapiens with 6 samples.

Results

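The mesenchymal state factors and cadherins are 10 genes chosen by name: the transcription factors SNAI1, SNAI2, TWIST1, TWIST2, ZEB1 and ZEB2, the cadherins CDH1 (E-cadherin) and CDH2 (N-cadherin), and the mesenchymal markers VIM (vimentin) and FN1 (fibronectin). All 10 were present among the 21447 genes of the deposited tables. They were measured by bulk RNA sequencing in U-2 OS, an established human osteosarcoma cell line, in 3 untreated libraries and in 3 libraries of cells exposed to 4 Gy of ionizing radiation (IR) and harvested 24 h later. Both groups were the same unmodified line in the same medium, so the dose was the only labelled difference between them. The comparison asked which of these genes had a different transcript level a day after DNA damage. The study calls the replicates independent samples, but neither it nor the labels say whether these were separate cultures, and P values measured the spread between the libraries, which may be partly technical. All values are averages over a whole culture, in which fewer cells expressing a gene and less RNA per expressing cell cannot be told apart.

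Epithelial cells hold on to each other through E-cadherin, whose cytoplasmic tail is linked by catenins to the actin cytoskeleton. The SNAI and ZEB zinc-finger proteins and the TWIST basic helix-loop-helix proteins bind E-box elements in DNA and are best known as repressors of CDH1 during the epithelial to mesenchymal transition, in which cells lose E-cadherin and gain N-cadherin, the intermediate filament protein vimentin and the matrix glycoprotein fibronectin. U-2 OS cells derive from a bone tumour and express mesenchymal genes from the outset. Fibronectin is further varied by splicing: 2 cassette exons, extra domain A (EDA) and extra domain B (EDB), are left out of the plasma form made by liver and are included by many mesenchymal and tumour cells.

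The EDA and EDB exons are shown because fibronectin transcripts differ in whether they include them, and the transcript mixture differed between libraries. The mixture as a whole sets the length by which the level of fibronectin is scaled. The EDA and EDB exons are short beside the leading transcript of 7762 bases, and their part in the change of that length was not tested. Both lie inside the coding part of FN1 on the minus strand of chromosome 2 and are written 5′ to 3′ in the direction of the gene, from GRCh38. EDA lies at chr2:215380811-215381080, and EDB at chr2:215392931-215393203.
EDA: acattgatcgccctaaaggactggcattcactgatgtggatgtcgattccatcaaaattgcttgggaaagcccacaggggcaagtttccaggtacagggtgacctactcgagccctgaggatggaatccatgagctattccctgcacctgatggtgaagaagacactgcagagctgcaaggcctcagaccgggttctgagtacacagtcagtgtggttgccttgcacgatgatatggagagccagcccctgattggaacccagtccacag
EDB: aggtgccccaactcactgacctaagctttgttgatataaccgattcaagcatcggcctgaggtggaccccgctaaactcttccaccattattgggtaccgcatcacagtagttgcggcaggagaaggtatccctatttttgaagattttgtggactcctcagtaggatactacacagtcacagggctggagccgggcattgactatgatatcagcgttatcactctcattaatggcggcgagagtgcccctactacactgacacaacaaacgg

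The stretch upstream of ZEB1 is shown because the SNAI and ZEB proteins are known to bind the E-box letters CACCTG, and ZEB1 was the only one of the 6 members with a promoter in the RefSeq table (GRCh38.p14; TWIST2, ZEB1, ZEB2, CDH2, VIM and FN1) to hold them within 250 bases before to 50 bases after an annotated start. SNAI1, SNAI2, TWIST1 and CDH1 were not matched. The letters were searched on both strands, where the other strand reads CAGGTG, and 2 of the 7 ZEB1 windows held them. ZEB1 had 7 of the 13 windows of these 6 members, and each other member had at most 2, so the members were not searched over equal lengths. The stretch lies at chr10:31318966-31319124 on the plus strand, ends directly before the start of the leading transcript ZEB1-201, and carries one copy in capitals that begins 151 bases before that start.
ZEB1: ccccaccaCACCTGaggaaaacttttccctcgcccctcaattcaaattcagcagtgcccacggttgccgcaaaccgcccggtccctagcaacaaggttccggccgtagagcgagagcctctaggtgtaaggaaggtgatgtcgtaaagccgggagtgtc
The RefSeq window that contains this stretch held 3 copies in all. Of all 35116 windows in the table, 20.6% held the letters at least once and 0.635% held at least 3 copies. A match of letters is a description of the sequence and was not read as a binding site.

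The libraries held between 18573309 and 45308792 estimated counts, and IR replicate 3 was by far the deepest, more than 2 times as deep as each other IR library. The deposited data of IR replicate 3 carried the mark -rep in their name, and nothing says whether this library was sequenced again. Its counts also differed more from the other libraries of its group. The chi-square per gene was 29.1 and 32.2 between it and IR replicates 1 and 2. This measure, which also grows with depth, was 5.92 between IR replicates 1 and 2 and 3.45 to 9.15 between untreated libraries. Of 14323 genes tested, 30.1% were called different at an adjusted P of 0.05 (15.5% higher and 14.5% lower after IR), and the CPM ranges of the 2 groups did not overlap for 47.1%. CPM is the count set to a common library size after edgeR's scaling, and TPM is the authors' own value, which also divides by transcript length. Of 9 osteoblast lineage markers, 5 exceeded 1 TPM on average. The matrix genes SPARC (mean 1918 TPM), COL1A1 (547 TPM) and SPP1 (167 TPM) were highest, RUNX2 (4.29 TPM) and ALPL (1.31 TPM) were low, IBSP, BGLAP and COL1A2 were below 1 TPM, and SP7, a transcription factor that defines osteoblasts, was listed at 0. ALPL was called higher and RUNX2 lower after IR. The T cell marker CD3E was also listed at 0, and the summed CPM of 5 leukocyte markers ranged from 7.92 to 11.1 in the untreated and from 12.1 to 17.7 in the IR libraries. CD68, a lysosomal protein of macrophages and other cells, was the only one of them called (log2 fold change 0.67, higher). Of 5 endothelial markers 2 could be tested and neither was called, with sums of 3.75 to 5.18 and of 4.60 to 5.93 CPM.

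The mesenchymal structural genes were abundant and E-cadherin transcripts were scarce in both groups. On the TPM scale, which allows genes to be compared, VIM was highest with 1121 to 1476 TPM over the 6 libraries, followed by FN1 with 252 to 339 TPM and CDH2 with 93.3 to 103 TPM. These 3 genes stood at the 99.3th, 96.9th and 89.3th percentile of mean TPM among the genes tested. The transcription factors were far lower, with 15.9 to 30.2 TPM for ZEB1, 15.1 to 23.6 TPM for SNAI2, 3.74 to 5.70 TPM for SNAI1 and 0.548 to 1.69 TPM for TWIST2. CDH1 (0.616 to 1.87 TPM) and ZEB2 (0.557 to 1.71 TPM) were at the 10.8th and 9.50th percentile, and TWIST1 was last with 0 to 0.341 TPM. Neighbours whose ranges overlapped, and whose order was therefore not resolved, were ZEB1 and SNAI2, TWIST2 and CDH1, and CDH1 and ZEB2. Each family thus had a dominant member in these cells, SNAI2 over SNAI1, ZEB1 over ZEB2, TWIST2 over TWIST1 and CDH2 over CDH1, in all 6 libraries. The same order of all 10 genes was found with CPM per kilobase.

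**Figure D1:**
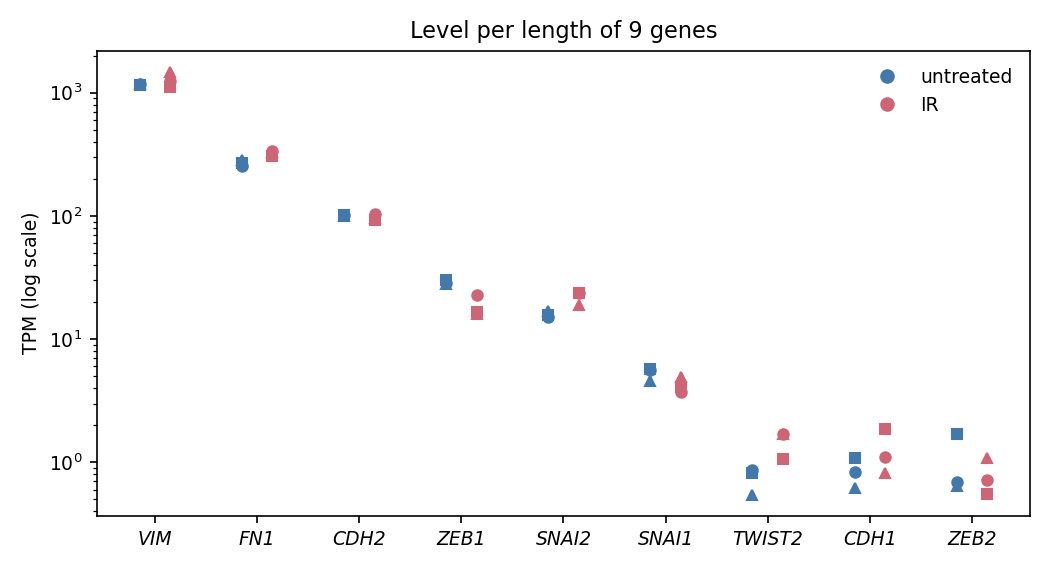
TPM (log axis) of 9 of the 10 genes in each library, ordered by mean level; blue points are untreated and red points IR libraries, and circles, squares and triangles are replicates 1, 2 and 3. VIM, FN1 and CDH2 lie at 93.3 TPM or above in all libraries, and TWIST2, CDH1 and ZEB2 lie at 1.87 TPM or below; TWIST1, which has values of 0, is not drawn.

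A day after IR, 4 of the 9 members that could be tested were called: SNAI2, TWIST2 and CDH1 were higher and ZEB1 was lower. TWIST1 did not pass the filter on low counts. The share called, 44.4%, stands beside 30.1% of all tested genes, and with 9 genes the count by itself was not read as a result about this set. The median log2 fold change of the 9 genes was 0.04, against 0.01 for all tested genes. CPM did not overlap between the groups for 6 of the 9, beside 47.1% of all tested genes. The abundant structural genes CDH2, VIM and FN1 were not called, and the calls fell on genes of low or moderate level.

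SNAI2 (Slug; ENSG00000019549, chromosome 8, 48917598 to 48921740, minus strand) was the more abundant SNAI factor and rose. Its level was 20.6, 21.5 and 25.0 CPM in the untreated libraries and 33.3, 35.4 and 25.4 CPM in the IR libraries. The groups did not overlap, but IR replicate 3 lay just above the highest untreated library. The means were 22.3 ± 2.32 and 31.3 ± 5.27 CPM (SD, n = 3), a log2 fold change of 0.48 (SE 0.13, 95% interval 0.19 to 0.76; adjusted P = 0.0193), which is a 1.39-fold rise. Without IR replicate 3 the log2 fold change was 0.61, and the call was lost when untreated replicate 1 or 2 or IR replicate 1 or 2 was left out, with adjusted P values of up to 0.073. SNAI2-201, the canonical transcript of 3 exons, took 90.0% to 95.3% of the counts in all libraries.

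SNAI1 (Snail; ENSG00000124216, chromosome 20, 49982980 to 49988886, plus strand), the short-lived founding member of the family, had lower values after IR and narrowly missed the threshold. The untreated libraries had 10.2, 10.4 and 9.19 CPM, and the IR libraries had 7.02, 8.33 and 8.02 CPM. All 3 IR libraries lay below all 3 untreated ones. The log2 fold change was -0.35 (SE 0.12, 95% interval -0.62 to -0.07; adjusted P = 0.0552), from 9.91 ± 0.639 to 7.79 ± 0.685 CPM. In a fit that corrects each library for a trend with GC content SNAI1 was called, with a log2 fold change of -0.54 and an adjusted P of 0.007. SNAI1 has a GC content of 58.4% and SNAI2 of 41.4%. By TPM the groups overlapped, at 5.62, 5.70 and 4.59 TPM untreated and 3.74, 4.11 and 4.95 TPM after IR.

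The 2 SNAI genes were also set against each other within each library, which removes the library scaling. SNAI2 exceeded SNAI1 2.68, 2.76 and 3.69 times by TPM in the untreated libraries and 6.30, 5.74 and 3.81 times after IR. The groups did not overlap, although untreated replicate 3 and IR replicate 3 were close. The log2 ratio was 0.78 higher after IR, at a 2-sided exact permutation P of 0.1, the smallest that 3 against 3 libraries allow, and 0.4 after adjustment over the 4 pairs tested. On estimated counts the shift was 0.83.

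TWIST2 (ENSG00000233608, chromosome 2, 238848032 to 238910534, plus strand), also known as DERMO1, was the expressed TWIST gene and rose from a very low level. Its estimated counts were 18, 20 and 14 in the untreated libraries and 40, 23 and 76 in the IR libraries, equal to 0.988, 0.892 and 0.684 CPM and to 1.94, 1.25 and 1.68 CPM. All 3 IR libraries were above all 3 untreated ones. The means were 0.855 ± 0.155 and 1.62 ± 0.346 CPM, a log2 fold change of 0.93 (SE 0.29, 95% interval 0.30 to 1.57; adjusted P = 0.0329), the highest of the 9 and the one with the widest interval after ZEB2. The call was lost with DESeq2's Wald test, with the GC correction (0.76), with a length offset (1.03), and in 5 of the 6 fits without 1 library. TWIST2-202 took 67.6% to 100% of its counts.

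TWIST1 (ENSG00000122691, chromosome 7, 19020991 to 19117636, minus strand), the mesodermal relative of TWIST2, was at the limit of detection. No count was assigned to it in the untreated libraries, and the IR libraries had 2, 1 and 1. These values are at or under the limit that a count of 0 allows, 3 counts per library or 0.0664 to 0.165 CPM, so no fold was computed. The few counts all fell on TWIST1-203, a short transcript of 527 bases annotated for nonsense-mediated decay, and the canonical TWIST1-201 was at 0 in every library.

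ZEB1 (ENSG00000148516, chromosome 10, 31318495 to 31529814, plus strand) was the most abundant of the 6 transcription factors and the only member called lower. Its level was 60.5, 61.4 and 57.9 CPM in the untreated libraries and 52.1, 45.6 and 41.1 CPM in the IR libraries. The untreated values lay close together and every IR value was below them. The mean fell from 59.9 ± 1.82 to 46.3 ± 5.54 CPM, a log2 fold change of -0.38 (SE 0.09, 95% interval -0.58 to -0.18; adjusted P = 0.0114). ZEB1 was called in all 15 alternative fits, with log2 fold changes of -0.60 to -0.23, the smallest in size with the GC correction. By TPM the levels were 28.6, 30.2 and 27.8 untreated and 22.8, 16.6 and 15.9 after IR, again without overlap. ZEB1-201, a coding transcript of 9 exons whose upstream stretch is printed above, took 83.9%, 74.1% and 90.6% of the counts in the untreated libraries and 91.0%, 94.2% and 95.1% after IR.

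ZEB2 (ENSG00000169554, chromosome 2, 144364364 to 144521057, minus strand), its paralogue, was barely expressed, and its change could not be judged. Its estimated counts were 20, 55 and 13 untreated and 24, 23 and 75 after IR, or 1.10, 2.45 and 0.635 CPM against 1.16, 1.25 and 1.66 CPM. The untreated values spanned the whole range of the IR values. The log2 fold change was -0.03 with a 95% interval of -0.97 to 0.91 (SE 0.42; adjusted P = 0.969), which covers folds from 0.511 to 1.88 at this depth. Between 5.1% and 48.2% of the counts fell on ZEB2-227, a retained-intron transcript of 1 exon, and the leading coding transcript ZEB2-246 took 7.6% to 30.0%. The ratio of ZEB1 to ZEB2 by TPM ranged from 17.6 to 42.9 untreated and from 14.8 to 31.6 after IR, with overlap (log2 difference -0.39, exact permutation P = 0.5).

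CDH1 (ENSG00000039068, chromosome 16, 68737292 to 68835537, plus strand), the gene that the factors above are known to repress, was low and higher after IR. Its estimated counts were 34, 45 and 48 in the untreated libraries and 70, 63 and 125 in the IR libraries, or 1.87, 2.01 and 2.35 CPM against 3.39, 3.43 and 2.77 CPM. The groups did not overlap. The means were 2.07 ± 0.246 and 3.20 ± 0.371 CPM, a log2 fold change of 0.61 (SE 0.21, 95% interval 0.15 to 1.06; adjusted P = 0.0465), just inside the threshold. The call was lost without the filter on low counts (adjusted P = 0.0528), with DESeq2's Wald test, with the length offset and when any 1 library was left out (adjusted P of 0.052 to 0.134). By TPM the groups overlapped, at 0.827, 1.09 and 0.616 untreated and 1.11, 1.87 and 0.817 after IR. CDH1-201, the canonical transcript of 16 exons, took 89.8% to 97.9% of the counts.

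CDH2 (ENSG00000170558, chromosome 18, 27932879 to 28177946, minus strand), the cadherin that joins mesenchymal and neural cells, showed the narrowest interval around no change among the members. It stood at 236, 231 and 232 CPM untreated and at 249, 232 and 221 CPM after IR. The IR values surrounded the untreated ones. The log2 fold change was 0.01 (SE 0.07, 95% interval -0.14 to 0.15; adjusted P = 0.943), which covers folds from 0.909 to 1.11. Its mixture of transcripts varied more than its level: CDH2-211 took 47.5%, 49.9% and 25.6% untreated and 33.1%, 26.1% and 24.9% after IR, with overlap between the groups.

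The 2 cadherins set against each other give a ratio that is often read for a cadherin switch. CDH2 exceeded CDH1 124, 93.3 and 161 times by TPM in the untreated libraries and 93.5, 50.04 and 118 times after IR. These groups overlapped, with a log2 difference of -0.58 and an exact permutation P of 0.3. On estimated counts the ratios were 126, 115 and 98.8 untreated and 73.5, 67.6 and 79.9 after IR, which do not overlap (log2 difference -0.62, exact permutation P = 0.1). Transcripts of CDH2 exceeded those of CDH1 in every library on both scales.

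VIM (ENSG00000026025, chromosome 10, 17228241 to 17237593, plus strand), the main intermediate filament of mesenchymal cells, had 1490, 1465 and 1545 CPM in the untreated libraries and 1649, 1563 and 1793 CPM in the IR libraries. The groups were apart, but by little. The log2 fold change was 0.15 (SE 0.07, 95% interval 0.00 to 0.31; adjusted P = 0.114), which did not pass the test. By TPM the groups overlapped, with 1188, 1154 and 1169 untreated and 1253, 1121 and 1476 after IR. VIM-201 took 90.4% to 94.4% of its counts.

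FN1 (ENSG00000115414, chromosome 2, 215360440 to 215436073, minus strand) gave different pictures on the 2 scales. Its CPM values were 979, 1125 and 947 untreated and 1147, 1020 and 973 after IR, with overlapping groups. The log2 fold change on counts was 0.04 (SE 0.09, 95% interval -0.15 to 0.23; adjusted P = 0.748). By TPM FN1 was 252, 269 and 286 untreated and 339, 309 and 328 after IR, and here all IR libraries were higher (269 ± 17.0 and 325 ± 15.3 TPM). The effective length by which its counts are divided went from 4933, 5368 and 4205 bases untreated to 4201, 3823 and 3949 bases after IR, and a fit that takes these lengths as an offset gave a log2 fold change of 0.32 with an adjusted P of 0.053.

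**Figure D2:**
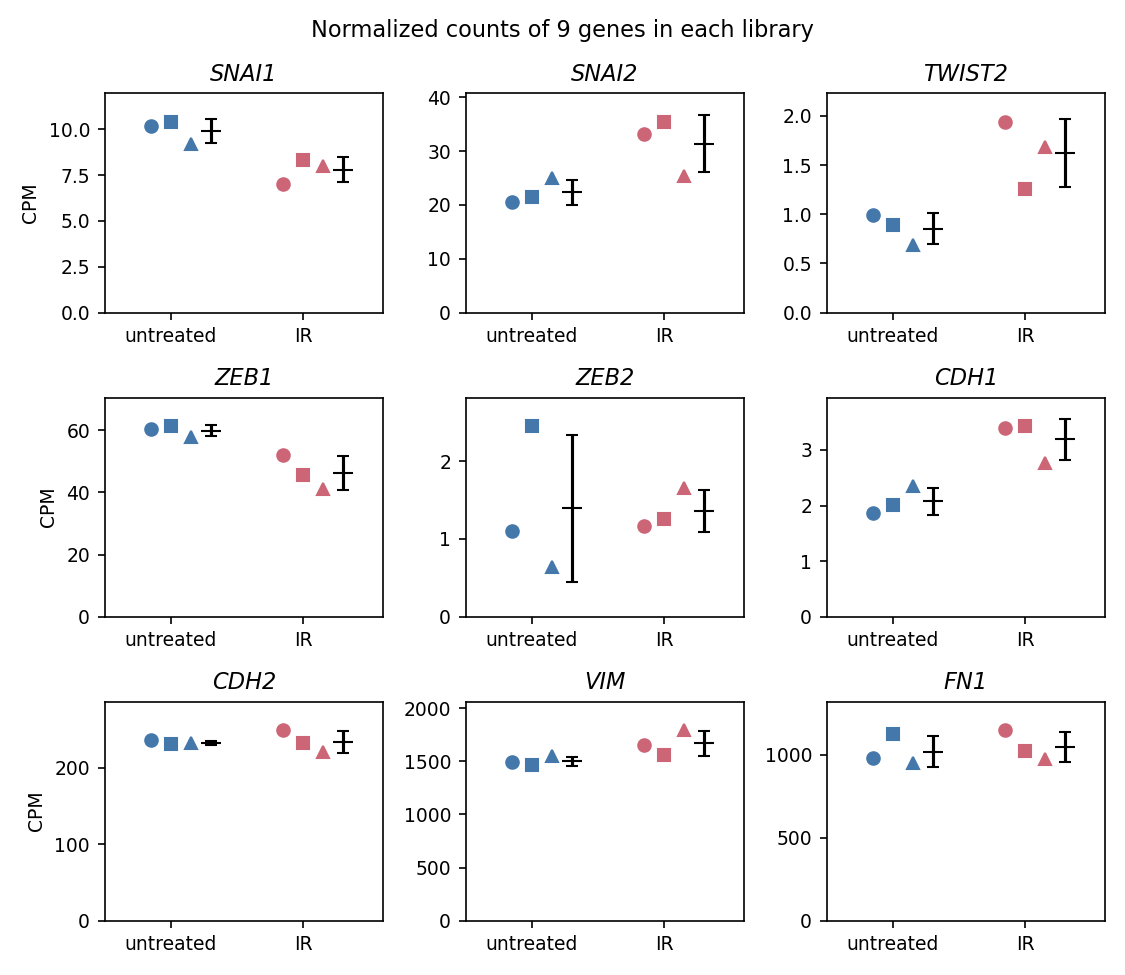
CPM of 9 members in each library, untreated in blue and IR in red, with replicates 1, 2 and 3 as circles, squares and triangles and the mean ± SD (n = 3) as a black bar; each panel starts at 0 and has its own scale. SNAI2, TWIST2, CDH1 and, by little, VIM lie higher and ZEB1 and SNAI1 lower in all 3 IR libraries, and ZEB2, CDH2 and FN1 overlap.

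**Figure D3:**
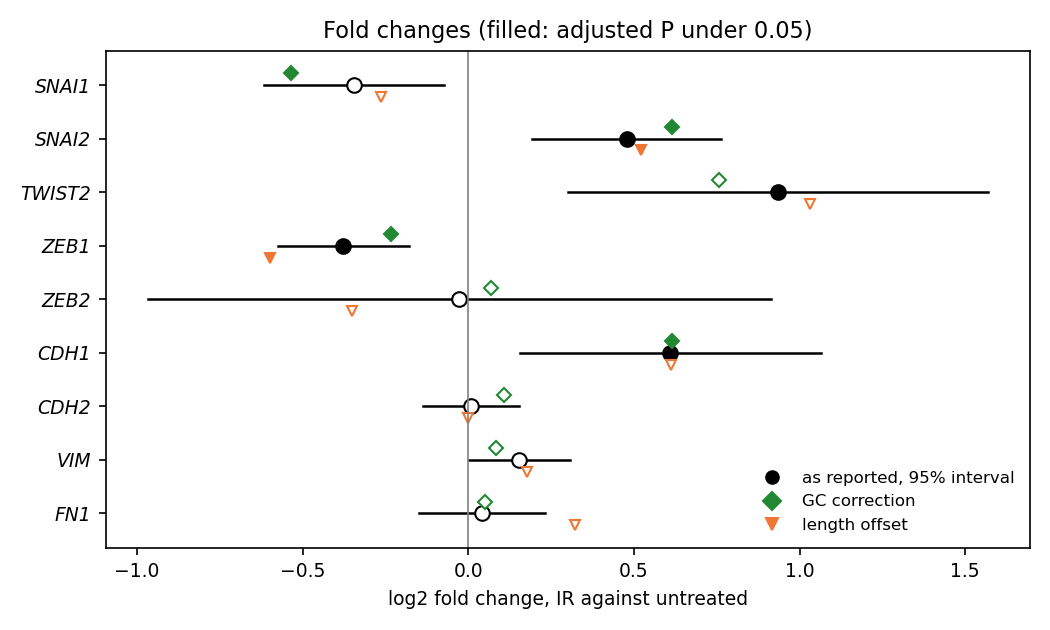
Log2 fold change of 9 members after IR against untreated, with its 95% interval (black), and the same with the GC correction (green diamonds) and the length offset (orange triangles); filled symbols have an adjusted P under 0.05. ZEB1 and SNAI2 are filled in all 3 fits, SNAI1 is filled with the GC correction only, and FN1 moves from 0.04 to 0.32 with the length offset.

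The length of FN1 depends on which of its 27 transcripts in the files the reads were assigned to. The leading one, FN1-211, which has neither extra domain, took 30.8%, 32.4% and 23.8% of the counts in the untreated libraries, 26.9% and 22.3% in IR replicates 1 and 2, and none in IR replicate 3. FN1-212, which has EDA and lacks EDB, took 16.6%, 12.8% and 11.8% untreated and 22.4%, 22.6% and 44.2% after IR. FN1-213, a shorter coding transcript of 3720 bases, took 9.72%, 6.33% and 8.45% untreated and 13.1%, 17.0% and 16.2% after IR. Both of these shares were higher in all 3 IR libraries than in all untreated ones, and FN1-212 was highest in IR replicate 3, the library with no count on FN1-211. The canonical FN1-203, with both domains, took 20.2%, 34.8% and 26.7% untreated and 19.8%, 10.7% and 18.2% after IR. Short retained-intron transcripts took small shares, but TPM, which divides by length, gives each of their counts more weight. One of 676 bases took 1.16%, 0.47% and 1.51% untreated and 2.13%, 2.49% and 3.53% after IR. Another, of 571 bases, took 0.46%, 0.74% and 0.74% untreated and 0.78%, 1.01% and 1.53% after IR. For one of 1058 bases the groups overlapped. The part of such transcripts in the higher TPM was not tested. Shares of single transcripts are estimates that divide reads shared between isoforms, and they were not tested.

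Summed over transcripts, the estimated counts give an inferred share for the 2 exons printed above. Reads on the exons themselves were not counted. Of the counts of the 14 transcripts that span the EDA position, those with the exon made up 47.5%, 51.2% and 39.8% in the untreated libraries and 48.7%, 47.7% and 73.9% after IR. Only IR replicate 3 was outside the untreated range. Of the counts of the 11 transcripts that span EDB, those with the exon made up 42.6%, 43.7% and 38.9% untreated and 36.4%, 37.8% and 40.7% after IR, and the groups overlapped. By these estimates both extra domains were present in a large part of the fibronectin transcripts of these cells in both groups.

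**Figure D4:**
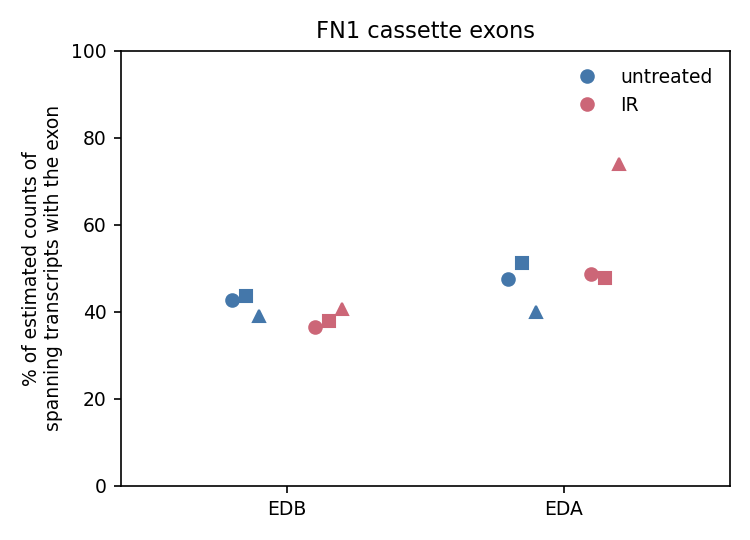
Percentage of the estimated counts of spanning FN1 transcripts that include the EDB or the EDA exon, in the untreated (blue) and IR (red) libraries, with replicates 1, 2 and 3 as circles, squares and triangles. EDB lies between 36.4% and 43.7% in all 6 libraries, and for EDA IR replicate 3 stands apart at 73.9%.

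The neighbours of these genes in the same processes were counted next, in 11 lists of genes. Among 23 tested epithelial junction and keratin genes, 4 rose and 3 fell (median log2 fold change 0.04), against 2 and 2 with the GC correction and 1 and 0 with the length offset. The partner keratins KRT8 (0.40, adjusted P = 0.0038) and KRT18 (0.42, adjusted P = 0.0066) rose, and the junction proteins OCLN (-0.28), TJP1 (-0.44) and PKP2 (-0.25) fell, while PKP3 rose by 0.42 but stood at -0.04 with the GC correction. With the length offset KRT8, OCLN, TJP1 and PKP2 were not called, and OCLN was not called with the GC correction (-0.13) either. The epithelial regulators ESRP1 and GRHL2 were near 0, at 0.120 and 0.183 mean TPM over the 6 libraries. Of 8 epithelial markers, these 2 among them, 4 exceeded 1 TPM on average and 4 could be tested. KRT8 and KRT18 were the 2 called, both higher. The summed CPM of the 8 was 311 to 314 untreated and 373 to 456 after IR. The part of any other cell type in the rise of CDH1 was not tested.

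Of 10 tested other cadherins, 4 were higher and none was lower, with a median of 0.30, and 2 were higher with the GC correction and 1 with the length offset. CDH13, a cadherin anchored to the membrane by a lipid, rose by 0.43 (adjusted P = 0.0030) but was at 0.07 with the length offset (adjusted P = 0.691), and CDH24 rose by 0.37 but was at -0.01 with the GC correction. Of 11 tested catenins and junction anchors, which tie cadherins to actin, 2 rose and 1 fell, against 1 and 2 with either correction. ARVCF, a catenin of the p120 family, rose by 1.01 (adjusted P = 0.0012), AFDN (afadin) fell by 0.48, and JUP (plakoglobin) rose by 0.29 but was at 0.00 with the GC correction. The abundant CTNNA1, the alpha-catenin that binds CDH1 and CDH2 complexes, was at 0.00 (adjusted P = 0.981).

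Of 16 tested further mesenchymal transcription factors, 1 rose (SOX4, 0.33) and 3 fell, namely SOX9 (-0.58), TCF4 (-0.54) and TCF12 (-0.32). The counts of this list were 2 and 3 with the GC correction and 1 and 3 with the length offset. TCF4 and TCF12 are E proteins, the class of factor with which TWIST proteins pair. Of the 4 ID genes, whose products sequester E proteins, ID1 (0.68, adjusted P = 0.0053) and ID3 (0.49, adjusted P = 0.0296) rose, and ID2 (0.22, and -0.17 with the length offset) and ID4 (0.17) did not pass. ID3 was not called with the GC correction (0.36, adjusted P = 0.0568) or with the length offset (0.62, adjusted P = 0.0817), which left ID1 as the one call. Of 12 corepressors and chromatin partners of the SNAI and ZEB proteins, none rose and 5 fell (median -0.19), among them SIN3A (-0.43), a scaffold of histone deacetylase complexes, and the Polycomb subunits EZH2 (-0.42) and SUZ12 (-0.32). With the GC correction and with the length offset 3 of the 12 were lower, and SUZ12 was called in neither (-0.12 with the GC correction). Of 12 genes for the turnover of SNAI proteins, none rose and 3 fell, namely the deubiquitinase USP37 (-0.65, adjusted P = 0.0004) and the F-box proteins FBXO11 (-0.32) and FBXO45 (-0.26). Under either correction 1 of the 12 was lower, USP37, and FBXO11 and FBXO45 were at -0.11 and -0.09 with the GC correction.

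Of 28 tested mesenchymal matrix and contractile markers, 7 rose and 5 fell (median 0.05), against 7 and 4 with the GC correction and 6 and 4 with the length offset. ACTA2, smooth muscle actin, rose by 1.47 from 3.29 to 9.10 CPM (adjusted P = 0.0006), although its locus overlaps genes on the other strand, and the surface receptor CD44 (0.37) and the membrane protease MMP14 (0.39) rose as well. TPM1 (-0.53), an actin-binding tropomyosin, the receptor PDGFRA (-0.69) and the matrix protein TNC (-0.31) fell. With the length offset CD44 (0.12) and TNC were not called. Of 11 fibronectin receptors and matrix assembly genes, 5 rose, including SDC4 (0.46), TGM2 (0.45) and PLAUR (0.43), and 3 fell, the integrin subunit ITGAV (-0.51) and the tensins TNS3 (-0.50) and TNS1 (-0.25). With the GC correction 3 of these 11 were higher, and TGM2, PLAUR and TNS1 kept their calls. With the length offset 1 was higher, and these 3 genes were not called.

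Beside VIM, 4 other intermediate filament and linker genes were tested, and only the neurofilament gene NEFL (0.50, adjusted P = 0.0015) was called. NES (-0.12) and the linker PLEC (0.32) did not pass. With the GC correction NES was called lower (-0.33, adjusted P = 0.0084), and PLEC stood at -0.13 and was not called. PLEC was called in 3 of the 15 alternatives. Of 15 genes for TGF-beta ligands, receptors and SMADs, the pathway best known for inducing SNAI and ZEB genes, 1 rose and 5 fell (median -0.15). The ligand TGFB1 rose by 0.36 (adjusted P = 0.0034), and the ligand TGFB3 (-0.48), the coreceptor TGFBR3 (-0.63) and the SMAD corepressor SKIL (-0.32) fell. With the GC correction and with the length offset no gene of this list was higher, TGFB1 being at 0.11 and 0.12, and 4 and 2 were lower; SKIL was called in neither, and TGFB3 was not called with the length offset. None of these lists was tested as a set. In the reported fit, 15.5% higher and 14.5% lower among all tested genes are the shares against which their counts are to be read. Calls were fewer over all 14323 genes under either correction. From 2227 higher and 2080 lower they went to 1670 and 1802 with the GC correction, and to 837 and 875 with the length offset.

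**Figure D5:**
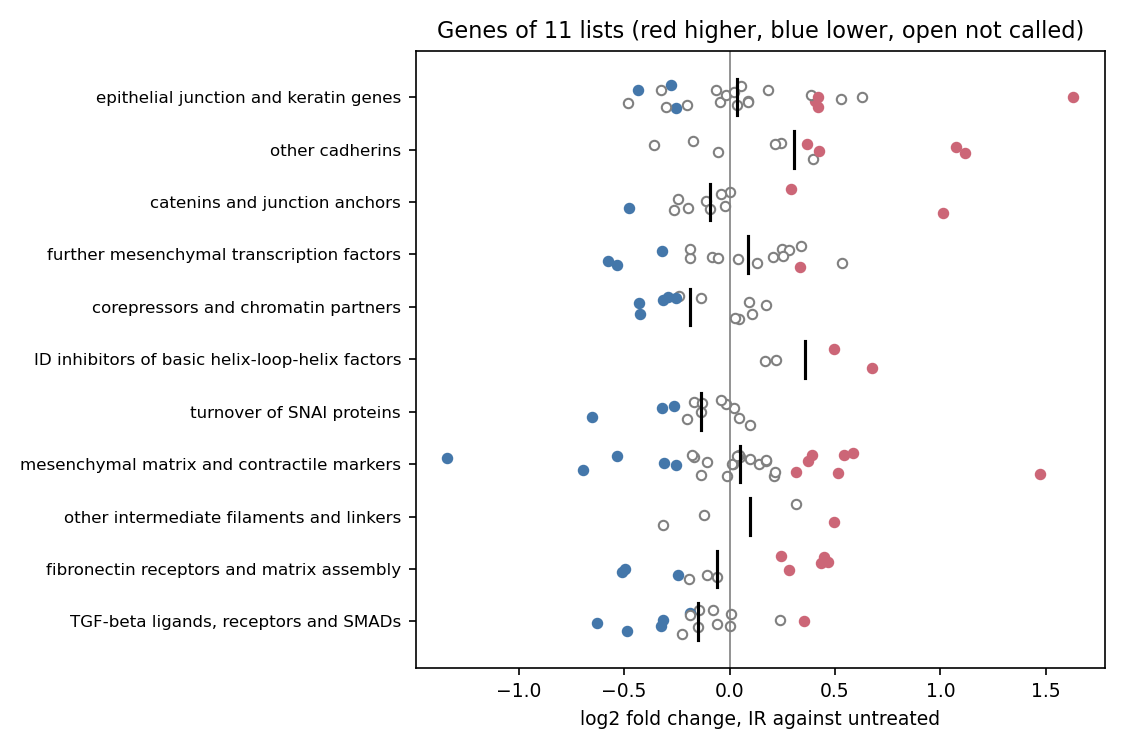
Log2 fold change after IR against untreated of every tested gene in 11 lists (red higher, blue lower, open circles not called), with the median of each list as a black line; the vertical scatter within a row has no meaning. Both directions occur in 6 of the 11 lists, and the medians lie between -0.19 and 0.36.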

How the data were processed

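Per the labels, polyA RNA of U-2 OS cells was extracted with TRIzol and made into Illumina TruSeq libraries (an mRNA kit in the labels, a total RNA kit in the study's methods). The authors trimmed adaptors with fastp and ran kallisto (version not given in the sources used here) on an earlier GENCODE release of GRCh38. For each transcript the deposited files hold an estimated count, which need not be whole, and a TPM value, both made by the authors without pooling replicates. Of 161171 transcripts, 158711 were found in GENCODE release 44 by identifier, and the estimated counts and TPM were summed per gene over 21447 genes. Estimated counts were rounded and tested with edgeR 4.0.16 (filterByExpr, TMM scaling, quasi-likelihood F test, Benjamini-Hochberg adjustment over 14323 genes, threshold 0.05), after the generalized linear model that the study used. The filter removed TWIST1. Standard errors are the log2 fold change divided by the square root of F. In counts simulated with the depths of these libraries, 88% of genes changed by a log2 fold of 1 and 61% of those changed by 0.5 were recovered. Of the unchanged genes, 7 were called. The changed genes were drawn at random from all levels. Their spread followed the trend with level, and no GC trend was added. These shares were therefore not measured for genes of low counts by themselves.

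Alternatives were no filter, at least 10 counts in every library, DESeq2 1.42.0 (its size factors, or its Wald test), the likelihood ratio test of edgeR, a GC correction, a replicate block, both together, the effective lengths as an offset, and leaving out each library. Ratios used a 2-sided exact permutation test on log2 values. The count of each library limits the precision of low genes, and the limit of 3 counts covers counting error only. The members and lists were chosen with earlier results of these data known. Named list genes are up to 3 called genes in each direction with the lowest adjusted P and a mean of at least 100 counts, and in lists with fewer than 4 calls the 2 other genes of highest TPM. A marker gene on the leukocyte list is not reported here.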

Additional observations from a re-analysis of the deposited data

How the results depend on the processing

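ZEB1 kept its direction and its call in all 15 alternatives. SNAI2 lost its call in 4 of the 6 fits without 1 library and in no other alternative (log2 fold change 0.38 to 0.61 over those 6). SNAI1 was called with the GC correction (-0.54) and with the replicate block and GC correction (-0.53). TWIST2 lost its call with the Wald test (0.93), the replicate block (0.92), the GC correction (0.76), both together (0.75), the length offset (1.03) and in 5 of 6 sets without 1 library (0.79 to 1.07). CDH1 lost its call without the filter (0.61), with the Wald test (0.60), the replicate block (0.61), the block with GC correction (0.62), the length offset (0.61) and without any 1 library (0.54 to 0.71). ZEB2 turned positive with the replicate block (0.12), the GC correction (0.068), both (0.21) and ranged from -0.37 to 0.68 without 1 library. CDH2 was at -0.0025 with the length offset and ranged from -0.054 to 0.038 without 1 library, and FN1 from -0.044 to 0.12.

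The number of members called was 2 with the Wald test, the replicate block and the length offset, and 1 to 2 without 1 library. Those higher numbered 1 with the Wald test, the block, the block with GC correction and the length offset, and 0 to 1 without 1 library. Those lower numbered 2 with the GC correction, with and without the block. Of all genes, 1712 were called with the length offset and 2582 to 4398 without 1 library. The replicate numbers were not taken to pair the samples, since deviations of same-numbered libraries correlated by -0.05 to 0.01, and the block called 3351 genes.

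Among list genes the sign turned with the GC correction, alone and with the block, for PKP3 (-0.037 and -0.040), CDH24 (-0.010 and -0.0025), CTNNAL1 (0.10 and 0.11), COPS2 (0.012 and 0.012) and PLEC (-0.13 and -0.14), and with the GC correction alone for JUP (-0.0016). It turned with the length offset for ID2 (-0.17) and CTNNA1 (-0.094). CTNNA1 was also at -0.0039 with DESeq2's size factors and -0.0037 with its Wald test, and without 1 library it ranged from -0.027 to 0.021 and CTNNAL1 from -0.098 to 0.016. The FN1 to VIM log2 ratio, 0.15 by TPM, was -0.11 on counts. Changes in the calls with the GC correction and the length offset stand beside the lists. The causes were not tested. Low counts limit TWIST1, TWIST2, ZEB2 and CDH1, and TWIST1 entered the test only without the filter, where it was not called.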
